A study of Mus musculus with 8 samples.

Results

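CD4+ T cells taken from the inflamed colon of mice were set against T helper 17 (Th17) cells made in culture, over all 8 libraries of the series, 4 from each source. The libraries were chosen by their labels, and genes were joined by symbol. The control donors were Rora fl/fl, with floxed alleles and no Cre. The knockout donors were Cd4-cre Rora fl/fl, in which the Cd4 promoter drives the Cre recombinase in T cells. Rora encodes the nuclear receptor RORα. Naive CD4+ donor cells were transferred into Tcrbd-/- mice for the colon libraries. These hosts lack their own αβ and γδ T cells but keep B cells, innate lymphoid cells and myeloid cells. After 6 weeks the CD4+ T cells were isolated from the colon, and each genotype gave 2 libraries. The culture libraries came from naive cells kept for 4 days on plate-bound antibodies to CD3 and CD28. One cytokine mix combined TGF-β and IL-6 (the TGF-β mix), and the other held IL-23 and IL-1β besides IL-6 (the IL-23 mix). Each mix had 1 control and 1 knockout library. Both kinds of cells were treated with PMA and ionomycin, which mimic signals from the T cell receptor, for 2 hours. The ages of the mice, and whether animals were pooled, are not given in the sources used here.

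Th17 cells are helper T cells that secrete IL-17A, IL-17F and IL-22 and are abundant at the gut wall. TGF-β with IL-6 is the standard recipe for making them from naive cells. IL-23 with IL-1β is known for cells that cause more disease when transferred. Transferred naive T cells that reach the colon meet microbes and local signals for weeks, and several helper programmes can arise side by side.

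The libraries held 13176752 to 14967756 counts in colon and 15252700 to 15922696 in culture, so depth differed little between the sources. Every library expressed Cd4 (905 to 1138 CPM in colon and 416 to 658 CPM in culture, where CPM is the count scaled to a common library size), and the 14 conventional T cell markers summed to 9994 to 13060 CPM in colon and 6667 to 7423 CPM in culture. Genes of other cells were also read in colon. The 10 dendritic cell markers summed to 419 and 422 CPM in colon controls, 618 and 637 CPM in colon knockouts and 37.7 to 284 CPM in culture, with 6 of 8 tested higher in colon. Of the others, Clec9a and Siglech did not pass the filter on low counts. Flt3 was lower in colon (log2 difference -2.40) without passing the test. The 12 B and plasma cell markers summed to 650 to 657 CPM in colon controls, 2296 to 2484 CPM in colon knockouts and 19.8 to 131 CPM in culture, with 8 of 9 tested higher in colon, although Ms4a1 and Pax5 did not pass the filter on low counts. Summed markers of epithelium (17 genes) ranged over 56.7 to 155 CPM in colon and 18.6 to 23.7 CPM in culture, and those of macrophages and monocytes (14 genes) over 60.6 to 87.8 and 2.27 to 32.5 CPM. Of these, 10 of 12 and 9 of 11 tested were higher in colon. In the epithelium list 1 gene was higher in culture, and Muc2 had the lowest log2 difference (-3.63). In each list 6 genes had no count in culture, but only 2 and 4 of them passed the filter on low counts. The 12 fibroblast markers summed to 41.3 and 32.9 CPM in colon controls and 136 and 123 CPM in colon knockouts. In culture they summed to 1.98 and 2.26 CPM in the TGF-β mix and 408 and 373 CPM in the IL-23 mix. Of the 12, 9 were higher in colon and 1 in culture. The 10 endothelial markers summed to 116 to 125 CPM in colon and 18.6 to 85.1 CPM in culture. Of 6 tested, 5 were higher in colon and 1 in culture. All 3 tested γδ T cell markers were higher in colon. The part of such RNA in the results below was not tested. In bulk libraries, fewer cells of a type and less RNA per cell cannot be told apart, and counts do not show whether 1 cell type or a mixture made several cytokines.

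Genes of the sex chromosomes separated the sources. Xist, the RNA that silences one X chromosome in female cells, stood at 0, 0.0791, 0 and 0.427 CPM in colon and at 1278, 1136, 532 and 697 CPM in culture. The Y-linked gene Ddx3y stood at 95.4, 103, 125 and 162 CPM in colon and at or below 0.0594 CPM in culture. Source, sex, isolation from tissue and the kind of file (the annotation used for counting also differed) thus cannot be told apart. Of the genes described below, Ifng, Il5, Foxp3, Ccr9, Bnip3 and Pdgfa share 25.95%, 27.13%, 31.53%, 21.45%, 22.25% and 26.07% of their exonic bases with another annotated gene, so their counts are less certain.

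Colon and culture were far apart. Over 14904 genes tested, the root mean square log2 CPM difference was 1.795 to 1.836 for all pairs of a colon and a culture library. It was 1.22 to 1.26 between mixes, 0.73 to 0.77 between genotypes in colon, 0.34 to 0.35 between genotypes within a mix and 0.41 to 0.46 between colon replicates. The source of the cells thus separated libraries more than the mix did, and the mix more than the genotype.

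**Figure D1:**
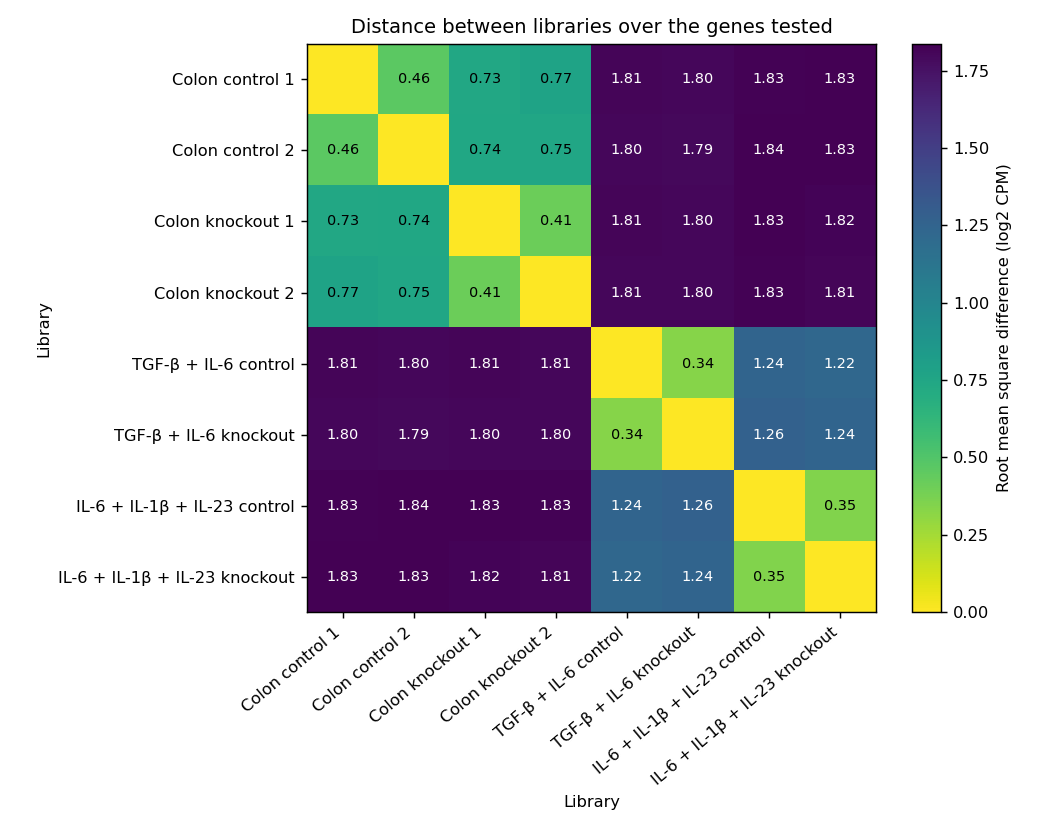
Root mean square difference in log2 CPM over the 14904 genes tested for each pair of the 8 libraries. Each axis lists the libraries, and the pairs of colon with culture (1.795 to 1.836) are all darker than the pairs of the mixes (1.22 to 1.26).

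With genotype as a covariate, 4067 genes were higher in colon (27.3% of those tested) and 4154 were higher in culture (27.9%), at an adjusted p under 0.05 by edgeR's quasi-likelihood test. At least 2-fold changes made up 2802 (18.8%) and 3149 (21.1%) of these. All 4 colon libraries lay above all 4 culture libraries for 4265 genes (28.6%), and the reverse held for 4008 (26.9%). In either direction 8221 genes (55.2%) were called. The lists of Th17 core, regulatory T cell, co-inhibitory receptor, respiratory chain and mTORC1 component genes below were called about as often. Those of non-pathogenic Th17, mTORC1 inhibitor, ribosome assembly and ribosomal protein genes were called less often. The median log2 difference of all genes was -0.09. Scaling by library totals lowered it by 0.27, to -0.36, and changed the split to 3160 higher in colon and 5369 higher in culture. Differences below are on the log2 scale as colon minus culture, with their standard error (SE), and are best read against that median. Levels are listed as colon control 1 and 2, colon knockout 1 and 2, then TGF-β mix control and knockout, then IL-23 mix control and knockout.

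**Figure D2:**
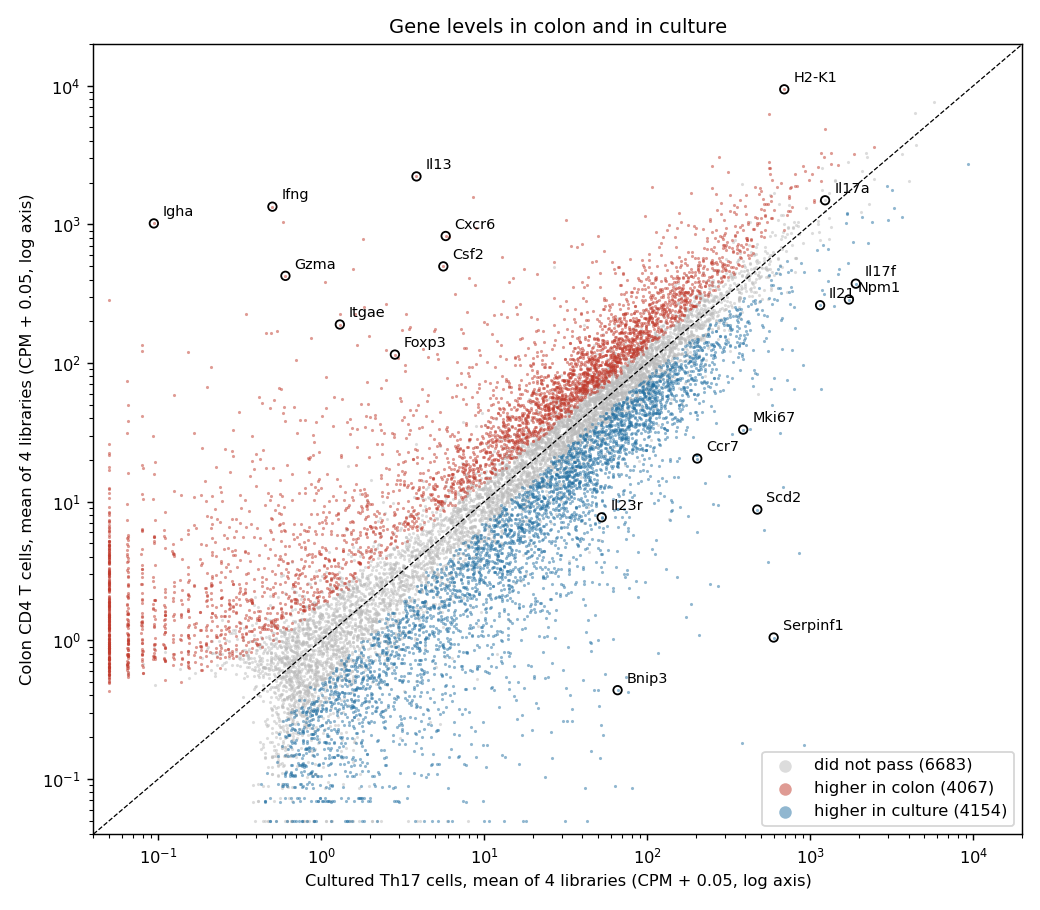
Mean CPM of each gene over the 4 culture libraries (x axis) and the 4 colon libraries (y axis), both log axes with 0.05 added, with 14904 genes as points and the line of equal level dashed. Red points (4067) were higher in colon and blue points (4154) higher in culture at an adjusted p under 0.05, and circled genes are described in the text.

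With genotypes pooled, the gene that defines Th17 cells did not pass between the sources. Il17a (chr1:20730905-20734496, mm10) encodes IL-17A. It stood at 2206, 2464, 622 and 673 CPM in colon and at 1648, 878, 1559 and 841 CPM in culture. The sources overlapped, with colon controls above all cultures and colon knockouts below them, and the difference was 0.07 (SE 0.21, adjusted p = 0.80). Its sign turned with library totals (-0.21). By genotype, in the fit with source, genotype and their interaction, the Il17a difference was 0.54 in controls (adjusted p = 0.041) and -0.41 in knockouts (adjusted p = 0.0999). The interaction itself did not pass in that fit. Fits with control libraries only or knockout libraries only did not call Il17a, so the call in controls depended on the fit. Its neighbour Il17f (chr1:20777146-20790617), which encodes the related IL-17F, differed. Il17f levels were 614, 578, 145 and 156 CPM in colon and 2877, 1999, 1780 and 941 CPM in culture. All cultures lay above all colon libraries, by 2.62 (log2 difference -2.62, SE 0.38, adjusted p = 0.0011).

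Of the 20 listed Th17 core genes, 6 were higher in colon, 6 higher in culture and 8 did not pass, with a median of 0.15 (-0.13 with library totals). Il23r, the specific chain of the IL-23 receptor, was higher in culture, at 9.69, 8.86, 6.45 and 5.62 CPM in colon against 30.2, 14.3, 83.5 and 81.7 CPM. The log2 difference of Il23r was -2.80 (SE 0.57, adjusted p = 0.0046), and the IL-23 mix was highest. Il21, a cytokine that acts back on Th17 cells, read 251, 278, 244 and 271 CPM in colon and 1771, 1615, 544 and 659 CPM in culture (-2.14, SE 0.41, adjusted p = 0.0039). Cultures exceeded colon for Hif1a as well, the oxygen-sensing factor that promotes glycolysis (-1.28, SE 0.14, adjusted p = 0.00029).

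Other Th17 genes were higher in colon. Tmem176b, a membrane protein gene active in Th17 cells, stood at 251, 226, 106 and 104 CPM in colon and at 5.72, 4.82, 0.784 and 1.01 CPM in culture. Tmem176a, beside it, had 270, 247, 107 and 108 CPM and 6.82, 5.28, 0.845 and 0.951 CPM. The pair differed by 5.68 (SE 0.72, adjusted p = 0.00062) and 5.59 (SE 0.76, adjusted p = 0.00082), and every colon library lay above every culture. Batf, an AP-1 factor needed for Th17 differentiation, was also higher in colon (2.60, SE 0.28, adjusted p = 0.00031), as was Nfkbiz, which encodes IκBζ, a partner of NF-κB at Th17 genes (2.44, SE 0.31, adjusted p = 0.00065).

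Il22 and Il1r1 depended on the mix. Il22, whose product acts on epithelial cells, stood at 589, 660, 346 and 361 CPM in colon. The TGF-β mix gave 0.231 and 0.172 CPM and the IL-23 mix 61.9 and 44.7 CPM. All colon libraries were highest, but the pooled difference did not pass (4.15, SE 1.54, adjusted p = 0.051). The mixes themselves lay 8.01 apart. In the fit with each mix as its own source, colon exceeded the TGF-β mix by 11.17 (adjusted p = 3.8e-10) and the IL-23 mix by 3.16 (adjusted p = 7.7e-09). Il1r1, the receptor for IL-1, read 104, 105, 76.1 and 83.3 CPM in colon against 72.3, 55, 106 and 81.6 CPM in culture, with overlap (0.23, SE 0.18, adjusted p = 0.29). Rora itself overlapped as well, at 278, 322, 147 and 164 CPM in colon and 455, 173, 139 and 53.9 CPM in culture (0.23, SE 0.45, adjusted p = 0.68). Each knockout library read less Rora than the control of its own group, and counts over the whole gene do not measure the deleted part alone.

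Genes of inflammatory, IL-23-linked ("pathogenic") Th17 cells were mostly higher in colon, with 13 of 17 higher, 1 higher in culture and 3 not passed, and a median of 3.47. Csf2, which encodes the myeloid growth factor GM-CSF, stood at 568, 508, 447 and 467 CPM in colon and at 3.18, 2.24, 10.3 and 6.54 CPM in culture. No library overlapped, and the difference was 6.51 (SE 0.51, adjusted p = 0.00010). Cxcl3, a chemokine for neutrophils, had 332, 353, 106 and 109 CPM in colon and 0.809, 0.975, 3.14 and 1.31 CPM in culture (7.02, SE 0.46, adjusted p = 5.5e-05). Il23r was the member higher in culture, and Il22, Lgals3 and Lag3 did not pass. In the list of non-pathogenic Th17 genes, 2 of 9 were higher in colon and 2 higher in culture. Its Il10, for the cytokine that restrains inflammation, read 220, 245, 111 and 123 CPM in colon and 4.68, 5.85, 3.68 and 5.59 CPM in culture (5.07, SE 0.34, adjusted p = 6.1e-05).

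**Figure D3:**
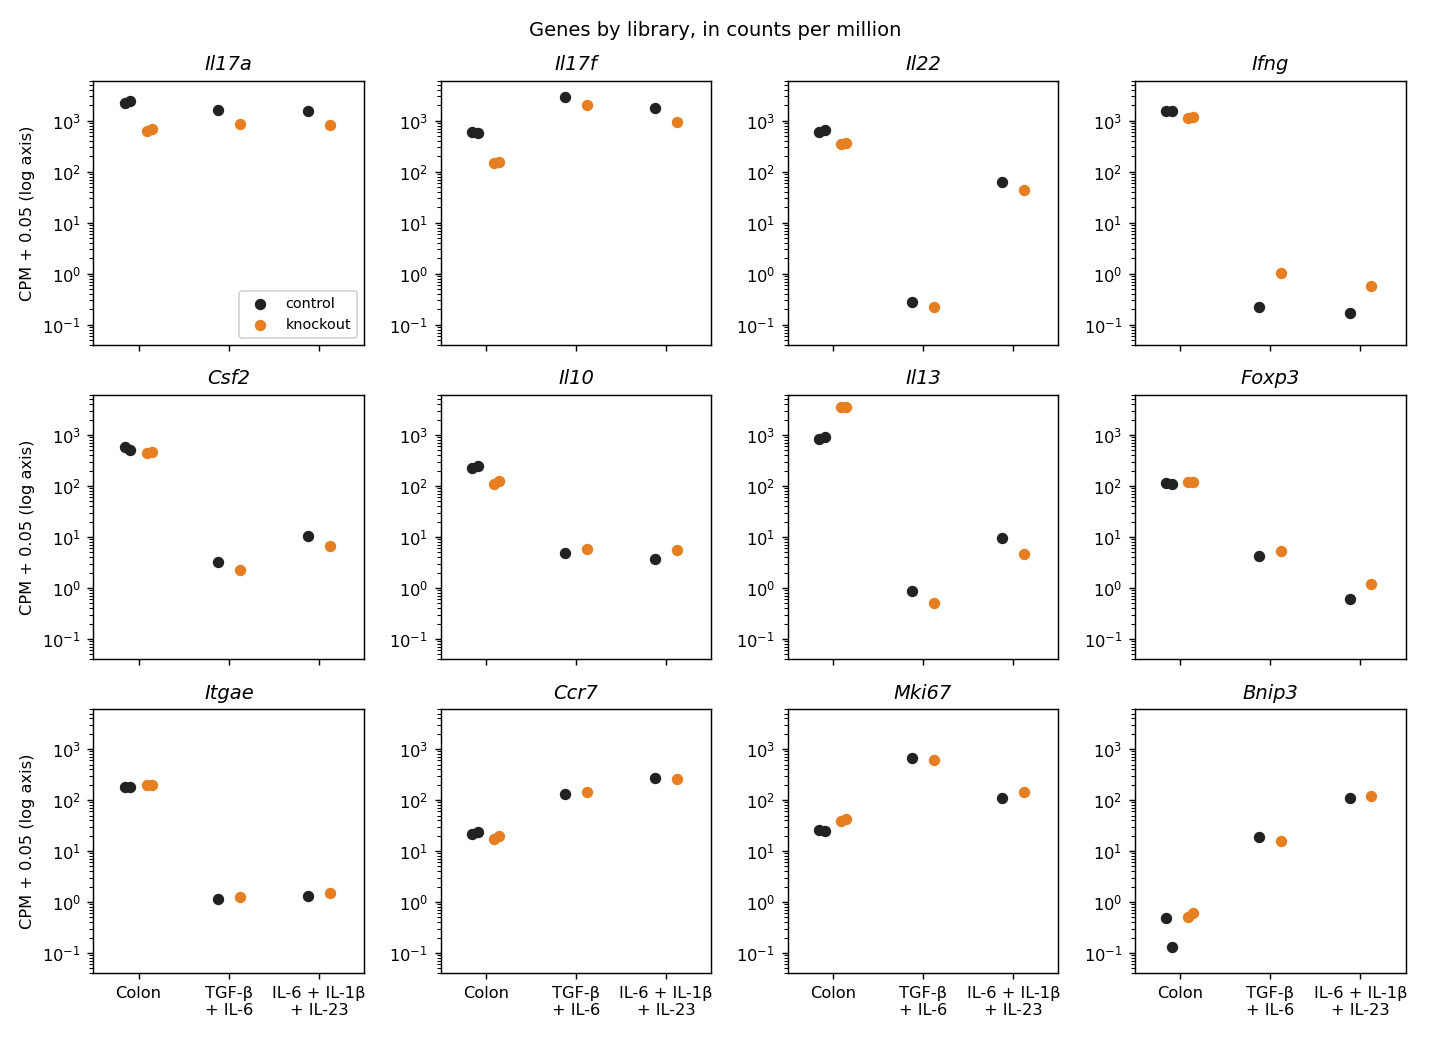
CPM (plus 0.05, log axis) of 12 genes in each library, by source and cytokine mix on the x axis, with controls in black and knockouts in orange. Il17a overlaps between sources, Il17f, Ccr7, Mki67 and Bnip3 lie higher in culture, and Ifng, Csf2, Il10, Il13, Foxp3 and Itgae lie higher in colon.

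Most Th1 genes were higher in colon, and the main Th1 cytokine was nearly absent from culture. Ifng (chr10:118441046-118445892), the gene for interferon-γ, stood at 1522, 1531, 1107 and 1206 CPM in colon and at 0.173, 0.975, 0.121 and 0.535 CPM in culture, where all 4 libraries together held 31 counts. The groups lay far apart (11.57, SE 0.62, adjusted p = 2.8e-05). Tbx21, which encodes the Th1 regulator T-bet, read 251, 255, 206 and 193 CPM in colon and 31, 38.1, 30.7 and 56 CPM in culture, thus present in both and higher in colon (2.56, SE 0.24, adjusted p = 0.00018). Of the 14 Th1 genes, 10 were higher in colon, none was higher in culture and 4 did not pass, with a median of 3.50. Il18r1 and Il18rap, the chains of the IL-18 receptor, differed by 4.76 (SE 0.52, adjusted p = 0.00034) and 5.40 (SE 0.42, adjusted p = 0.00010). Runx3, a partner of T-bet, was among those that did not pass, at 193, 192, 149 and 128 CPM in colon, 68.7 and 61.2 CPM in the TGF-β mix and 226 and 218 CPM in the IL-23 mix (0.19, SE 0.46, adjusted p = 0.74).

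Type 2 genes were also higher in colon, with 9 of 12 tested, 1 higher in culture and a median of 4.03. Il13 (chr11:53631324-53634702), whose product drives mucus secretion, stood at 830, 928, 3604 and 3506 CPM in colon and at 0.809, 0.459, 9.29 and 4.58 CPM in culture. Both colon genotypes exceeded every culture, with knockouts highest (8.92, SE 1.27, adjusted p = 0.00099). Il4 had 41.1, 34, 430 and 514 CPM in colon and at most 2.38 CPM in culture (6.33, SE 0.73, adjusted p = 0.00041). Il5, the eosinophil growth factor gene, read 30.6, 32.4, 222 and 250 CPM in colon and 2 counts in all cultures together, so no fold is given. Gata3, the Th2 regulator, was present at 179, 179, 356 and 349 CPM in colon and 15.4, 16.3, 18.4 and 15.4 CPM in culture (3.94, SE 0.25, adjusted p = 5.0e-05). Markers shared with innate lymphoid cells are among these genes. The 11 markers of NK and innate lymphoid cells, which include Gata3, Il1rl1, Kit and Il7r, summed to 872 to 1015 CPM in colon and 74.0 to 209 CPM in culture. Of 9 tested, 7 were higher in colon. Ncr1 and Klrb1c were at 0 in culture, but averaged only 0.635 and 2.48 CPM in colon. Klre1 did not pass (-0.44), and Klra8 and Arg1 stayed at or below 1 and 7 counts in every library.

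The exception in the type 2 list was Il24, a cytokine of the IL-10 family. It read 0.0897, 0.0791, 0.15 and 0.214 CPM in colon, 1.79 and 1.78 CPM in the TGF-β mix and 812 and 714 CPM in the IL-23 mix. The IL-23 mix stood alone, and the pooled log2 difference was -11.36 (SE 2.72, adjusted p = 0.0097).

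Regulatory T cell genes were divided. Foxp3, the regulatory lineage factor, stood at 114, 110, 119 and 117 CPM in colon, 4.1 and 5.33 CPM in the TGF-β mix and 0.543 and 1.13 CPM in the IL-23 mix. Colon was highest and nearly constant (5.38, SE 0.67, adjusted p = 0.00057). Ikzf2, which encodes Helios, was likewise higher in colon (4.86, SE 0.38, adjusted p = 0.00010), whereas Gpr83 was higher in culture (-5.58, SE 0.53, adjusted p = 0.00020). Il2ra, the high-affinity IL-2 receptor chain, was at 1127 to 1475 CPM in colon and 3123 to 3449 CPM in culture (-1.33, SE 0.14, adjusted p = 0.00026). Over the 14 listed genes, 5 were higher in colon, 3 higher in culture and 6 did not pass.

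Genes that hold T cells in the gut wall were higher in colon. Itgae (chr11:73090583-73147446) encodes CD103, which binds E-cadherin on epithelium. It stood at 185, 182, 197 and 194 CPM in colon and at 1.1, 1.2, 1.27 and 1.43 CPM in culture. Within each source the values hardly differed, and the gap was 7.24 (SE 0.15, adjusted p = 8.1e-07). Cxcr6, a chemokine receptor of tissue T cells, read 786, 795, 791 and 925 CPM in colon, 11.3 and 8.89 CPM in the TGF-β mix and 1.51 and 1.25 CPM in the IL-23 mix (7.17, SE 0.85, adjusted p = 0.00047). Ccr9, the receptor for the gut chemokine CCL25, had 21.1, 20.1, 38.9 and 38.1 CPM in colon and 3 counts in all cultures together.

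Of 19 genes of gut homing and tissue residence, 15 were higher in colon, none higher in culture and 4 did not pass, with a median of 3.28. Prdm1, which encodes the repressor Blimp-1, differed by 6.78 (SE 0.92, adjusted p = 0.00081), and P2rx7, a receptor for extracellular ATP, by 4.03 (SE 0.16, adjusted p = 8.0e-06). The 4 that did not pass were Itga4, Gpr15, Runx3 and Rgs2. Gpr15, a colon homing receptor, stood at 7.44, 8.31, 41.6 and 47.3 CPM in colon and at 8.2, 6.37, 0.302 and 0.119 CPM in culture. Its colon controls thus lay beside the TGF-β mix and its colon knockouts above it.

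Lymph node homing went the other way. Ccr7, the chemokine receptor that guides naive T cells into lymph nodes, stood at 21.3, 23.5, 16.9 and 20 CPM in colon and 129, 143, 274 and 264 CPM in culture. All cultures lay above all colon libraries, with a log2 difference of -3.31 (SE 0.31, adjusted p = 0.00018). Of the 15 tested genes of lymph node homing and the naive state, 7 were higher in culture, 3 higher in colon and 5 did not pass. Klf2 and Tcf7 were among the 3 higher in colon (3.28, SE 0.38, adjusted p = 0.00042 and 0.94, SE 0.17, adjusted p = 0.0026).

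All 15 cytotoxic and chemokine genes were higher in colon, with a median of 4.44 and log2 differences from 2.47 for Gzmb to 10.88 for Ccl1. Gzma, a granzyme of cytotoxic granules, stood at 177, 167, 640 and 717 CPM in colon and at 0, 0.115, 0.965 and 1.13 CPM in culture (9.35, SE 0.91, adjusted p = 0.00021). Ccl5, a chemokine for T cells and monocytes, read 744, 819, 377 and 404 CPM in colon and 5.66, 4.07, 18.2 and 23.1 CPM in culture (5.44, SE 0.68, adjusted p = 0.00058). Colon was above culture for both, though Gzma was highest in knockouts and Ccl5 in controls. Gzmb was the closest to a culture, at 437 to 587 CPM in colon against 131 and 219 CPM in the IL-23 mix. Cd8a, a marker of other cytotoxic T cells, read 22.2 and 19.4 CPM in colon controls, 2.25 and 2.28 CPM in colon knockouts and 0 in culture, while Cd8b1 stood at 1.13 to 2.29 CPM in colon and at 2.95 to 9.17 CPM in culture.

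Of 13 co-inhibitory receptors tested, 5 were higher in colon and 2 in culture, a share near the 55.2% called over all genes. Klrg1, a receptor of terminal effector cells, read 22.4, 20, 30.9 and 31.4 CPM in colon and had no count in culture, so it was at least 149-fold higher in colon against a floor of 3 counts per library. Havcr2, which encodes TIM-3, stood at 80.4 to 155 CPM in colon and 7 counts in all cultures together (10.05, SE 0.21, adjusted p = 8.1e-07). Cd200 was higher in culture (-3.66, SE 0.27, adjusted p = 8.7e-05), at 48.4 to 79.2 CPM in colon and 603 to 1016 CPM in culture.

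Genes that T cells switch on within hours of stimulation were higher in colon although PMA and ionomycin were given for the same time. Of 27 immediate-early genes, 20 were higher in colon, none higher in culture and 7 did not pass, with a median of 2.07. Nr4a1, an orphan nuclear receptor induced by the T cell receptor, stood at 3129, 3096, 3151 and 2864 CPM in colon and at 398, 411, 149 and 146 CPM in culture (3.47, SE 0.42, adjusted p = 0.00051). Fosb, an AP-1 subunit, had 202, 212, 265 and 230 CPM in colon and 3.75, 5.11, 1.99 and 2.26 CPM in culture (6.11, SE 0.34, adjusted p = 3.0e-05). Neither overlapped. Myc was not among those called, at 1300, 1335, 815 and 806 CPM in colon and 1210, 1262, 1007 and 977 CPM in culture.

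Of 19 NF-κB genes, 16 were higher in colon and none in culture (median 1.76), among them Bcl2a1d and Relb (3.25, SE 0.46, adjusted p = 0.00096 and 2.53, SE 0.18, adjusted p = 7.1e-05). Tnf, an NF-κB target, read 2756, 2842, 1942 and 2051 CPM in colon and 469, 435, 165 and 178 CPM in culture, without overlap (2.92, SE 0.41, adjusted p = 0.00092). Of 24 genes of the T cell receptor pathway, 15 were higher in colon and 3 in culture. The kinase gene Zap70 was higher in colon (2.01, SE 0.33, adjusted p = 0.0020), whereas the costimulatory receptor Cd28 and the kinase gene Prkcq were higher in culture (-1.80, SE 0.21, adjusted p = 0.00047 and -1.98, SE 0.15, adjusted p = 9.5e-05). Il2, the T cell growth factor gene, was at 1221, 1390, 1725 and 2183 CPM in colon, 1068 and 1129 CPM in the TGF-β mix and 25.9 and 31.5 CPM in the IL-23 mix. The pooled difference of Il2 did not pass (adjusted p = 0.30), while colon exceeded the IL-23 mix by 5.81 (adjusted p = 2.4e-09).

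MHC class I genes, which present peptides to CD8 T cells, were higher in colon for 15 of 16 members, with Erap1 higher in culture and a median of 2.15. H2-K1 stood at 9766, 11183, 8247 and 8490 CPM in colon and at 537, 562, 796 and 871 CPM in culture (3.76, SE 0.24, adjusted p = 5.1e-05). B2m, its light chain, read 2685, 2803, 2442 and 3003 CPM in colon, 732 and 774 CPM in the TGF-β mix and 1797 and 2018 CPM in the IL-23 mix (1.04, SE 0.37, adjusted p = 0.043). H2 genes resemble each other in sequence, and counts can move between them. Of 28 interferon-response genes, 17 were higher in colon, 1 higher in culture and 10 did not pass, with a median of 2.22. Irf7, the amplifier of interferon responses, had 188, 173, 141 and 146 CPM in colon, 1.21 and 1.43 CPM in the TGF-β mix and 20.6 and 21.4 CPM in the IL-23 mix (3.85, SE 0.97, adjusted p = 0.012). The order colon, IL-23 mix, TGF-β mix held without overlap for Irf7 and B2m. Gbp2 was the one higher in culture (-1.15, SE 0.14, adjusted p = 0.00054).

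Cell division genes were higher in culture, and none of them was higher in colon. Of 34 mitosis genes, 29 were higher in culture and 5 did not pass, with a median of -2.32. Mki67, the gene of the proliferation antigen Ki-67, stood at 25.6, 24.3, 39.5 and 42.7 CPM in colon, 681 and 612 CPM in the TGF-β mix and 112 and 145 CPM in the IL-23 mix (-3.59, SE 0.67, adjusted p = 0.0033). Ncapg, a condensin subunit, had 3.86, 4.43, 6.23 and 6.91 CPM in colon and 77.5, 79.8, 66.4 and 71.9 CPM in culture (-3.81, SE 0.18, adjusted p = 2.1e-05). For Mki67 the mixes differed widely, and for Ncapg they hardly did.

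Of 44 DNA replication genes, 30 were higher in culture and 14 did not pass, with a median of -1.52. Orc1, the largest subunit of the origin recognition complex, read 1.7, 1.34, 1.43 and 1.92 CPM in colon, 39.4 and 46.5 CPM in the TGF-β mix and 12.3 and 11.4 CPM in the IL-23 mix (-4.09, SE 0.57, adjusted p = 0.00092). The genes that did not pass included the helicase subunit Mcm5, with 236, 220, 151 and 140 CPM in colon, above the 83.6 and 82 CPM of the IL-23 mix and below the 350 and 365 CPM of the TGF-β mix. Pcna, the clamp that holds DNA polymerase, was likewise between the mixes, at 194 to 231 CPM in colon against 332 and 332 CPM and 136 and 129 CPM. Colon cells were thus below the TGF-β mix for both, and above the IL-23 mix.

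Promoters of such genes are known for motifs, E2F sites in many replication genes and the cell cycle homology region (CHR) in many mitosis genes. In RefSeq promoters of 300 bases (GRCm38.p6, 250 before to 50 after the start), E2F motifs (TTCGCGC or TTGGCGC, either strand) lay in 15 of 42 promoters of 36 matched replication genes, 35.7%, against 3.9% of all 32851 promoters. The CHR motif TTTGAA, either strand, lay in 22 of 29 promoters of 28 matched mitosis genes, 75.9%, against 17.9% of all promoters and 11.9% of those of replication genes. E2F motifs lay in 17.2% of the mitosis promoters. Neither motif contains the other. Shown are the 120 bases before the start of the 3 genes that hold the motif there, among the 6 named from these lists for the largest differences, on the gene's strand, with the motif in capitals. Orc1 lies at chr4:108579334-108579453 (plus strand) and shows the reverse complement of an E2F motif, Ncapg at chr5:45669805-45669924 (plus strand) holds 1 CHR motif, and Mki67 at chr7:135716380-135716499 (minus strand) holds 2.
Orc1: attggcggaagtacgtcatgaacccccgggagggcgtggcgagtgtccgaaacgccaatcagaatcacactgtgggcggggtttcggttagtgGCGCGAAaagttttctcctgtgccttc
Ncapg: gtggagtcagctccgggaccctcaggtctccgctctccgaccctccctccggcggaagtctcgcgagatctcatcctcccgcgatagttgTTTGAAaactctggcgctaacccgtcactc
Mki67: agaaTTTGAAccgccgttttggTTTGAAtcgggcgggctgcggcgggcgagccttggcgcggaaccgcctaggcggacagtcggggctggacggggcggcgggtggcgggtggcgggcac
The Mki67 stretch also holds 1 E2F motif, TTGGCGC, left in lower case. The Orc1 motif begins 27 bases before the start, and the Ncapg motif 30 bases before it. Cdc6, Pole2 and Hmmr, the other genes chosen from these lists by the size of their difference, have no motif of their own list's kind in the same stretch. Elsewhere in the 300-base promoter, Pole2 and Hmmr do hold it, and Cdc6 does not. A match describes letters and says nothing of binding.

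Glycolysis and the response to low oxygen were higher in culture. Of 22 glycolysis genes, 15 were higher in culture, none higher in colon and 7 did not pass, with a median of -1.25. Tpi1, encoding triosephosphate isomerase, stood at 93.4, 90, 60.6 and 58.8 CPM in colon and at 515, 485, 950 and 936 CPM in culture (-3.28, SE 0.30, adjusted p = 0.00018). Slc16a3, the lactate exporter, read 15.1 to 30.5 CPM in colon and 142 to 270 CPM in culture (-3.28, SE 0.31, adjusted p = 0.00019). Hk2 and Slc2a1, which bring in and trap glucose, did not pass: Hk2 had 267, 229, 127 and 103 CPM in colon and 230 to 255 CPM in culture.

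Of 16 hypoxia-response genes, 13 were higher in culture and 1, Bhlhe40, higher in colon, with a median of -2.30. Bnip3, a mitophagy gene, stood at 0.449, 0.0791, 0.45 and 0.57 CPM in colon, 18.7 and 15.9 CPM in the TGF-β mix and 108 and 120 CPM in the IL-23 mix (-7.40, SE 1.01, adjusted p = 0.00084). Egln3, an oxygen-sensing prolyl hydroxylase, had 53.6, 51.4, 78.2 and 76.9 CPM in colon and 1099, 1039, 1214 and 1267 CPM in culture (-4.18, SE 0.18, adjusted p = 1.5e-05). Cultures were higher for both, with the mixes apart for Bnip3 and close for Egln3.

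Lipid synthesis followed the same direction. Of 23 sterol genes, 16 were higher in culture and 1 in colon (median -1.31). Of 12 tested fatty acid synthesis genes, 8 were higher in culture and 2 in colon (median -1.20). Scd2, a desaturase, stood at 9.06, 6.49, 10.3 and 9.04 CPM in colon and at 241, 180, 736 and 734 CPM in culture (-5.77, SE 0.59, adjusted p = 0.00026). Idi1, an isomerase of the mevalonate pathway, had 1.26 to 2.06 CPM in colon and 13.9 to 28.5 CPM in culture (-3.71, SE 0.34, adjusted p = 0.00017). Of 25 genes of ATF4, serine and one-carbon metabolism, 12 were higher in culture and 4 in colon. Slc3a2, a subunit of amino acid transporters, was among the 4, at 1337 to 2013 CPM in colon and 171 to 201 CPM in culture (3.16, SE 0.17, adjusted p = 3.0e-05).

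Genes that assemble ribosomes were higher in culture for 13 of 31, 1 was higher in colon and 17 did not pass (median -0.81). The mean log2 difference of colon controls was -1.16 to the TGF-β mix control and -0.155 to the IL-23 mix control. Between the mixes, 29 of the 31 were higher in the TGF-β mix (26.1% of all genes were). Npm1, a nucleolar chaperone, stood at 263, 263, 299 and 323 CPM in colon and at 1695, 1837, 1667 and 1697 CPM in culture (-2.59, SE 0.13, adjusted p = 2.2e-05). Ribosomal protein genes themselves mostly did not pass, with 19 of 79 higher in colon, 3 higher in culture and a median of 0.36 (0.09 with library totals). Copies of these genes elsewhere in the genome can share their reads. Respiratory chain genes had 24 of 51 higher in colon and 6 in culture (median 0.42, or 0.15 with library totals). Lysosome and autophagy genes had 18 of 26 higher in colon and 1 in culture (median 0.83), led by the autophagy receptor Sqstm1 at 2040 to 3315 CPM in colon and 167 to 346 CPM in culture (3.37, SE 0.32, adjusted p = 0.00019).

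The study's title concerns mTORC1, a kinase complex that promotes protein, lipid and sugar metabolism, and transcript counts do not measure its activity. Mtor, the kinase, stood at 56.4, 48.7, 47.3 and 43.1 CPM in colon, 67.4 and 71.2 CPM in the TGF-β mix and 40 and 42.6 CPM in the IL-23 mix. Colon lay between the mixes, and the pooled difference did not pass (-0.18, SE 0.23, adjusted p = 0.52). Of 21 components and activators, 7 were higher in colon, 4 higher in culture and 10 did not pass, with a median of 0.14 that became -0.14 with library totals. Rptor, the subunit that recruits substrates, was higher in colon (1.41, SE 0.28, adjusted p = 0.0044). Eif4ebp1, an mTORC1 substrate that blocks translation, read 7.83 to 9.53 CPM in colon, 34.1 and 35.2 CPM in the TGF-β mix and 256 and 239 CPM in the IL-23 mix (-4.03, SE 0.79, adjusted p = 0.0040). Of 16 inhibitors, 2 were higher in colon, led by Stk11 (1.80, SE 0.16, adjusted p = 0.00015), and 4 higher in culture, among them Sesn2 (-1.80, SE 0.16, adjusted p = 0.00016).

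**Figure D4:**
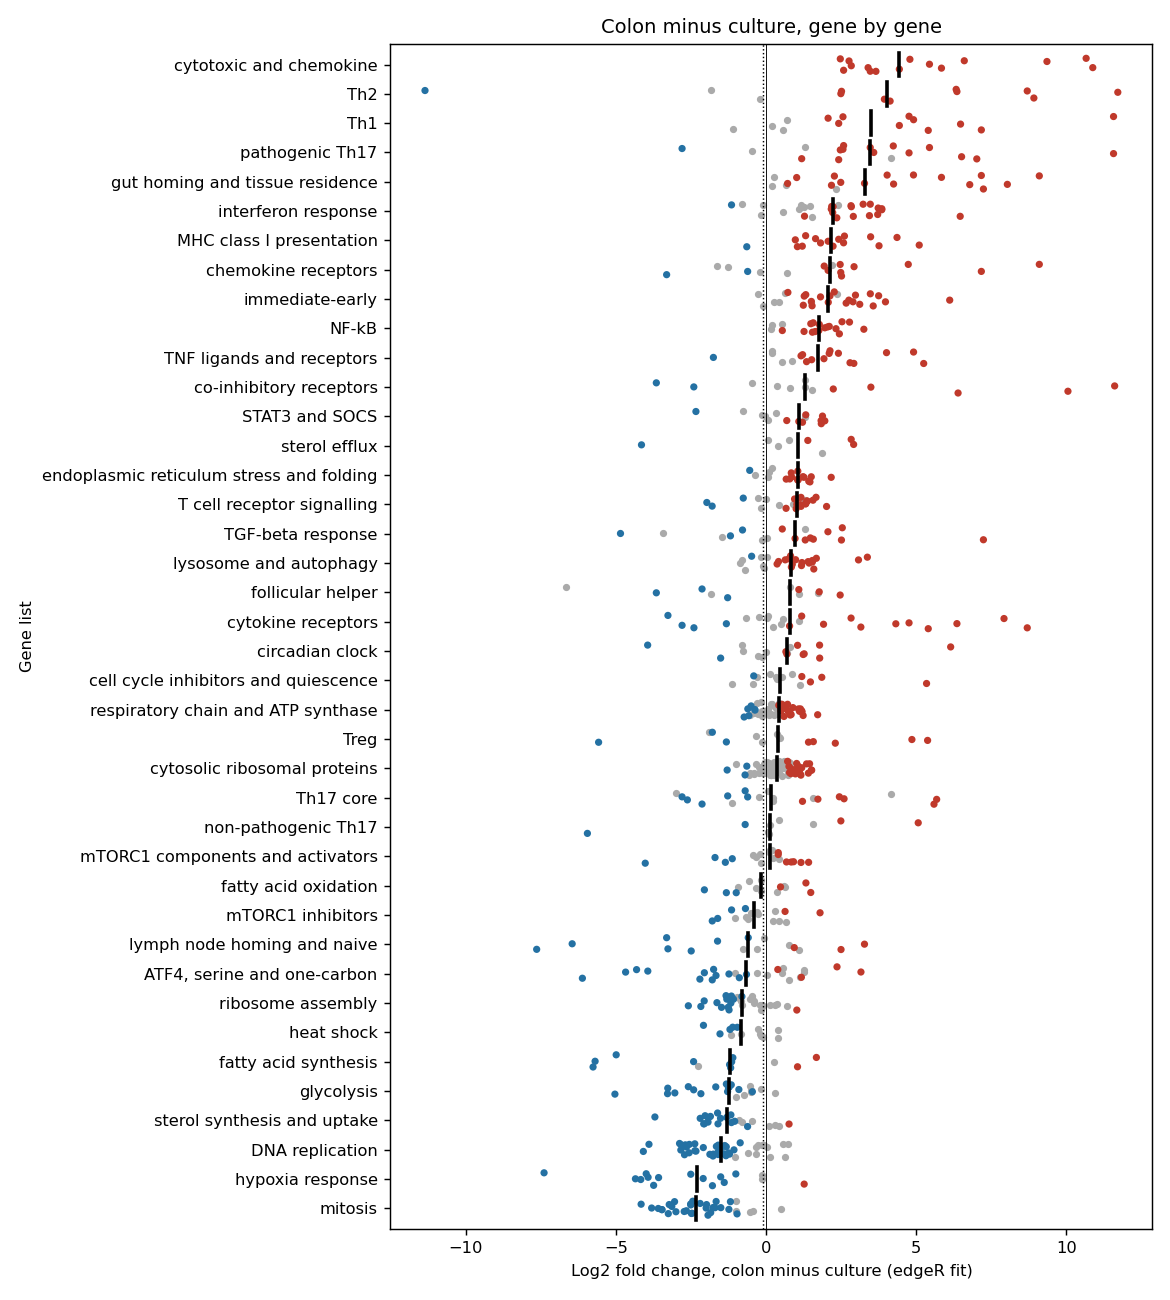
Log2 difference of colon minus culture for each tested gene of the 40 gene lists, ordered by the list's median (black bar). Red points were higher in colon, blue points higher in culture and grey points did not pass, and the dotted line is the median of all genes (-0.09). Cytotoxic and chemokine genes lie highest (median 4.44) and mitosis genes lowest (-2.32).

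Some of the largest differences involved genes that are not typical of T cells or whose counts depend on annotation. Igha, the IgA heavy chain of plasma cells, stood at 426, 420, 1558 and 1659 CPM in colon and at 3 counts in all cultures together. Igha made up most of the B and plasma cell sum given above. Lyz2, a macrophage lysozyme, read 17.9, 17, 27 and 27 CPM in colon and had no count in culture, a difference of at least 126-fold. Ptprcap, a lymphocyte gene, had 261 to 333 CPM in colon and 0 in culture, but 100% of its exonic bases are shared with another gene in GENCODE release M21. Hgs was the reverse, with 2 counts in colon, 57.6 to 104 CPM in culture and 99.62% of bases shared. For both, the reads counted can depend on the annotation, so neither is taken as a difference between cells.

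Among genes higher in culture, Serpinf1, a secreted serpin, stood at 0.807, 0.475, 1.43 and 1.28 CPM in colon, 77.7 and 68 CPM in the TGF-β mix and 1162 and 1074 CPM in the IL-23 mix (-9.24, SE 1.37, adjusted p = 0.0012). Inhba, a subunit of activin, read 1.82 to 5.93 CPM in colon, 316 and 345 CPM in the TGF-β mix and 1464 and 1290 CPM in the IL-23 mix (-7.76, SE 0.79, adjusted p = 0.00026). The IL-23 mix was highest for both. Gap43, best known from growing nerve fibres, had no count in colon and 15.3 to 77 CPM in culture, a difference of at least 180-fold.

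Which mix lay closer to colon depended on the measure. In the fit with each mix as its own source, 10977 genes separated colon from the TGF-β mix (73.7% of those tested, with 37.9% higher and 35.7% lower in colon). From the IL-23 mix 10768 genes separated it (72.2%, with 36.1% higher and 36.1% lower), and 8073 separated the mixes (54.2%, with 28.1% higher and 26.1% lower in the IL-23 mix). Between the mean of the 2 colon controls and the control library of each mix, the root mean square log2 difference was 1.79 for the TGF-β mix and 1.82 for the IL-23 mix, a gap of -0.028. The median absolute difference was 1.001 for the TGF-β mix and 0.923 for the IL-23 mix. At least 2-fold apart, with 5 CPM on either side, were 4903 and 4430 genes. Spearman's correlation of levels across genes was 0.857 and 0.855. The first measure and the correlation thus put the TGF-β mix marginally nearer, and the median and the number of genes put the IL-23 mix nearer. With 1 control library per mix there is no test.

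Gene by gene, 8219 of 14904 genes lay closer to the IL-23 mix and 6685 closer to the TGF-β mix. The fit over both genotypes called 2552 genes at least 2-fold higher in the IL-23 mix. Of these, 1104 lay closer to the IL-23 mix and 1448 closer to the TGF-β mix. It called 1684 genes at least 2-fold higher in the TGF-β mix, with 1102 closer to the IL-23 mix and 582 closer to the TGF-β mix. Each set thus leaned to the mix in which it was lower. Among 2808 genes at least 2-fold apart between the 2 control cultures, 1614 lay closer to the IL-23 mix, 57.5%. This share came mostly from genes higher in the TGF-β mix: of those 1292 genes, 889 were closer to the IL-23 mix, whereas of 1516 genes higher in the IL-23 mix 725 were. Restricting to the 8449 genes with a mean of at least 10 CPM gave root mean squares of 1.72 for the TGF-β mix and 1.64 for the IL-23 mix, and a share of 62.7%. Spearman's correlation among them was 0.660 for the TGF-β mix and 0.701 for the IL-23 mix. The order by the first measure and that by the correlation thus both turned among well expressed genes.

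The gene lists divided along the same question. By root mean square, colon controls lay closer to the IL-23 mix for mitosis genes (1.75 against 3.05 for the TGF-β mix) and DNA replication genes (1.29 against 2.25). Of these, 33 of 34 and 34 of 44 genes were closer to the IL-23 mix. The same order held for ribosome assembly (0.909 against 1.54), ribosomal proteins (0.735 against 1.33), the interferon response (2.17 against 4.19), MHC class I genes (2.56 against 3.17) and pathogenic Th17 genes (4.82 against 5.86). Il22 is in the pathogenic list and weighs in its larger value, at a log2 distance of 10.74 from the TGF-β mix and 3.33 from the IL-23 mix. By count, 12 pathogenic Th17 genes lay closer to the IL-23 mix and 5 closer to the TGF-β mix. Interferon genes were closer to the IL-23 mix for 25 of 28 members, and 23 of the 28 were higher in that mix than in the TGF-β mix (28.1% of all genes were).

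The TGF-β mix was closer for glycolysis and the hypoxia response. Glycolysis genes had a root mean square of 1.57 against 2.21 for the IL-23 mix, with 19 of 22 genes closer, and hypoxia genes 2.44 against 3.85, with 13 of 16 closer. Of these lists, 17 of 22 and 14 of 16 genes were higher in the IL-23 mix than in the TGF-β mix, and colon lay below both. Non-pathogenic Th17 genes (2.32 against 2.99) were also closer to the TGF-β mix, for 7 of 9 members. Sterol genes were somewhat closer to the TGF-β mix (1.568 against 1.777), for 15 of 23 members. Fatty acid oxidation genes gave 1.065 against 1.239, with 7 genes closer to each mix. Some other metabolic lists were about as far from either mix by root mean square. These were fatty acid synthesis (3.48 and 3.47), ATF4, serine and one-carbon genes (2.20 and 2.18) and the respiratory chain (0.892 and 0.815). By count, 9 of 12 fatty acid synthesis genes lay closer to the IL-23 mix and 3 closer to the TGF-β mix. Type 2 genes were divided evenly by count, with 6 closer to each mix, while their root mean square was 5.125 for the TGF-β mix and 6.072 for the IL-23 mix. Il24, which stood high in the IL-23 mix alone, weighs heavily in the second of these values. Th17 core genes were about as far from either by root mean square (3.43 for the TGF-β mix and 3.25 for the IL-23 mix). By count, 11 of the 20 lay closer to the TGF-β mix and 9 closer to the IL-23 mix. Il22 weighs heavily in the first value, at a log2 distance of 10.74 from the TGF-β mix and 3.33 from the IL-23 mix.

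**Figure D5:**
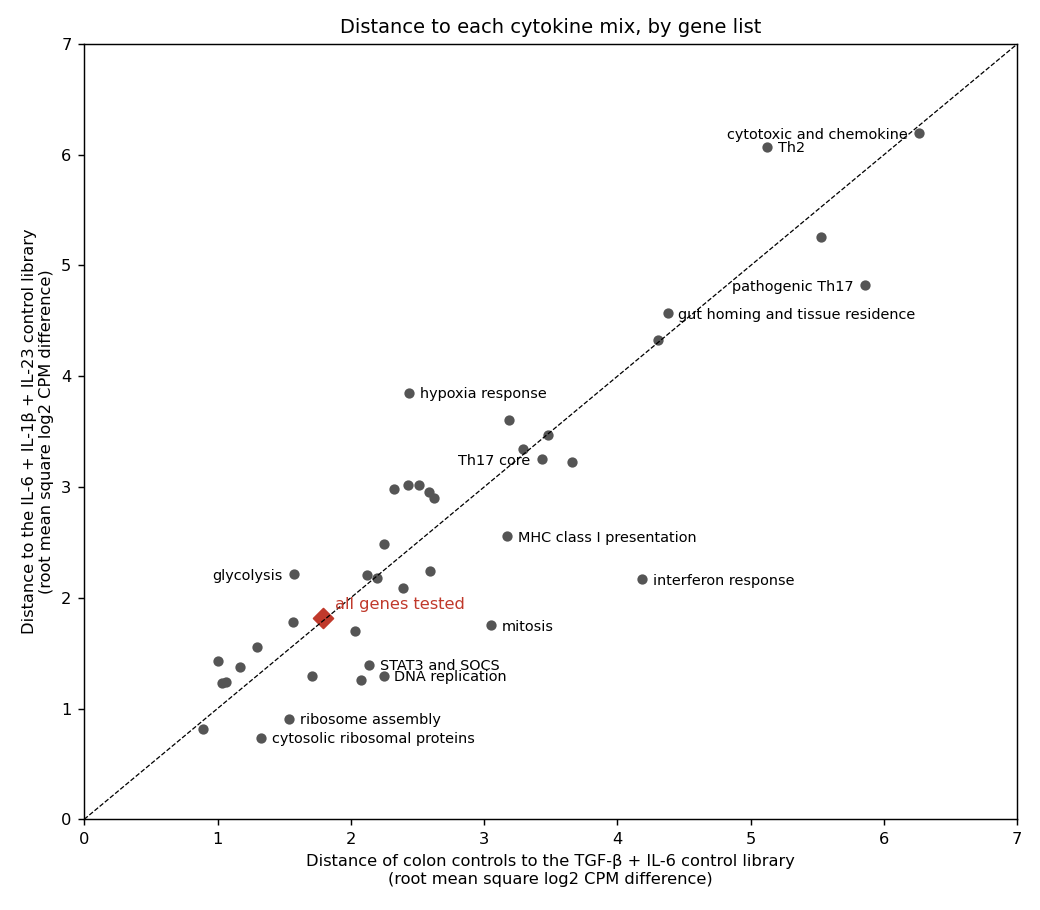
Root mean square log2 CPM difference between the mean of the 2 colon control libraries and the TGF-β mix control library (x axis) or the IL-23 mix control library (y axis), 1 point per gene list with at least 8 genes tested and a red diamond for all genes. Lists under the dashed line, such as mitosis (3.05 and 1.75) and interferon response (4.19 and 2.17), lie closer to the IL-23 mix, and hypoxia response (2.44 and 3.85) lies closer to the TGF-β mix.

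Single genes show both patterns. S100a6, a calcium-binding protein gene, stood at 202, 174, 162 and 161 CPM in colon, 4.27 and 5.45 CPM in the TGF-β mix and 173 and 151 CPM in the IL-23 mix. Adam8, a metalloprotease gene, read 803, 751, 681 and 644 CPM in colon, 2.37 and 2.64 CPM in the TGF-β mix and 74.3 and 80.3 CPM in the IL-23 mix. With Il22 these are among the 8 genes most clearly nearer the IL-23 mix. S100a6 was not detectably different from that mix (log2 difference 0.11, adjusted p = 0.44), and Adam8 and Il22 exceeded it.

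On the other side, Il33, a cytokine released from damaged cells, had 0.359, 0.316, 1.2 and 1.14 CPM in colon, 3.29 and 4.19 CPM in the TGF-β mix and 248 and 210 CPM in the IL-23 mix. Lum, a collagen-binding proteoglycan, read 0.316 to 3.49 CPM in colon, 1.21 and 1.43 CPM in the TGF-β mix and 387 and 353 CPM in the IL-23 mix. The 8 genes most clearly nearer the TGF-β mix, Il24, Abcc9, Lum, Tgm1, Pdgfa, Serpinb5, Il33 and Npr3, were at most 7.05 CPM in colon, at most 4.19 CPM in the TGF-β mix and at least 43.3 CPM in the IL-23 mix. Lum is a fibroblast marker, and the 12 fibroblast markers summed to 408 and 373 CPM in that mix, nearly all of it Lum. The other well-known fibroblast gene Col1a1 read 1.45 and 1.01 CPM there, and Col3a1 was at 0 in culture.

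The difference between colon and culture was also compared between the genotypes. With source, genotype and their interaction, edgeR called 0 of 14904 genes (0%), with 489 at an unadjusted p under 0.05, and DESeq2 called 17. In that fit the distance between mixes counts as spread. Adding a term for the mix gave 2574 genes (17.3%), of which the log2 difference of colon minus culture was more positive in knockouts for 1150 and more negative for 1424. Il17a was among them, with colon minus culture at 0.54 in controls and -0.41 in knockouts, and Il13, at 8.29 and 11.30.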

How the data were processed

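The 8 files hold counts of reads per gene, deposited by the authors without normalization, as whole numbers. Per the submitters' processing notes, Trim Galore, Bowtie2, featureCounts, edgeR and DESeq2 were used on build mm10, with no versions or roles given. No source used here gives the strand setting. The colon files list 54446 entries and the culture files 55341, from different annotations, and 53749 symbols were joined, which left out 0.2975% to 0.4662% of counts, including symbols turned into dates (27 and 26 per file). Replicates of a colon group differed beyond counting error (mean chi-square per gene 7.6 and 5.53). Whether they are separate mice is not stated, so the p-values reflect library-to-library spread that may be purely technical.

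Genes passing filterByExpr (14904) were tested in R 4.3.3 by the quasi-likelihood test of edgeR 4.0.16, TMM scaling and Benjamini-Hochberg adjustment over all of them, threshold 0.05. The terms were source and genotype (5 residual degrees of freedom), or colon and each mix with genotype (4). The biological coefficient of variation was 37.2% and 11.8%. The second fit takes the 2 genotypes of a mix as its 2 libraries. Distances used TMM-scaled log2 CPM with a prior count of 2. CPM printed are TMM-scaled. A fold against 0 uses a floor of 3 counts per library. DESeq2 1.42.0, other filters, scalings and left-out libraries were alternatives. Gene positions and shared exonic bases come from GENCODE release M21, and promoters from RefSeq.

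The members and lists (40 gene lists, 14 marker lists) were chosen with earlier results of these data known. Named were 26 fixed genes (2 of them are not reported here), up to 3 genes per list with the largest difference among those called, at 5 CPM or above throughout the higher source and without overlap, the 10 largest differences per direction and 8 genes per mix. Other names were added as list members after their values were seen.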

Additional observations from a re-analysis of the deposited data

Results flagged for a closer look

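In the fit with a term for cytokine mix, colon minus culture differed between knockout and control for 12 of the 26 fixed genes (adjusted p under 0.05 for the interaction), beside 17.3% of all genes. The fit without that term called none, and the test rests on 3 residual degrees of freedom. The change in the log2 difference, knockout minus control, was 0.43 for Rora, the deleted gene (adjusted p = 0.027). It was -0.95 for Il17a, -1.26 for Il17f and -0.93 for Ccr6 (adjusted p = 0.00018, 8.1e-05 and 0.0060). It was -2.70 for Ifng, -0.93 for Tbx21, -1.45 for Il10 and -0.48 for Tnf (adjusted p = 0.0024, 0.00099, 0.00023 and 0.010). It was positive for the type 2 genes, at 3.06 for Il4, 3.01 for Il13 and 1.06 for Gata3 (adjusted p = 0.00013, 1.0e-06 and 0.00020), and for Mki67, at 0.63 (adjusted p = 0.016).

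Summed B and plasma cell markers also differed between colon genotypes, at 650 and 657 CPM in controls and 2296 and 2484 CPM in knockouts, and their part in these values was not tested. No group held 4 or more libraries, so single libraries could not be screened as outliers.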

How the results depend on the processing

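Genes higher and lower in colon numbered 1820 and 1431 with control libraries only and 1497 and 992 with knockout libraries only, in both cases with fewer libraries, and 3160 and 5369 with library totals. Leaving out 1 library gave 3197 to 4139 higher and 3074 to 4087 lower, 9541 to 11180 genes between colon and the TGF-β mix, 9199 to 11141 between colon and the IL-23 mix and 6124 to 8125 between mixes. The fit with colon replicate number as a block gave 3657 and 3686, and differences between same-numbered colon libraries correlated at 0.139 across genes. It called 0 genes for the interaction. Without genes that share 50% of exonic bases or more the counts were 4008 and 4100, and without the sex chromosomes 3950 and 4014, both chosen after seeing the data.

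The interaction of source and genotype called 17 genes with DESeq2 and 2574 with a mix term. The gap in root mean square between the mixes, -0.028, was -0.046 with a prior count of 0.5, -0.0080 with 5, -0.045 with library totals, -0.015 between knockouts and 0.076 at a mean of 10 CPM or more, and -0.035 and -0.021 with single colon controls. The share closer to the IL-23 mix was 56.4% with library totals and 62.7% at 10 CPM or more, and 57.3% to 57.7% with single colon controls.

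Signs that turned were those of Il17a (-0.207 with library totals, -0.408 in knockouts only, -0.041, -0.028 and -0.064 without colon control 2, the TGF-β mix control or the IL-23 mix control), Rora (-0.042 with library totals, -0.058 without the IL-23 mix knockout), Il1r1 (-0.045 with library totals), Mtor (0.02 without the TGF-β mix knockout) and Ermn (2.98 against the mean of the mixes, adjusted p = 2.0e-05, and 0.37 without the IL-23 mix knockout). With 1 library left out their log2 differences ranged from -0.058 to 0.707 for Rora, -0.064 to 0.205 for Il17a, -0.347 to 0.02 for Mtor and -1.92 to 0.373 for Ermn. None of these was called by the main test, and the cause was not tested. Ccr6, called at an adjusted p of 0.049 (-0.62), lost the call in 11 alternatives, among them 7 of the 8 that left out 1 library.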

Other observations

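Clock genes were called about as often as all genes (55.2%), with 8 of 17 higher in colon, 2 higher in culture and 7 not passed. Among them, Hlf, a clock output factor, stood at 69.1, 69.5, 24.7 and 29.8 CPM in colon and at 0.809, 0.746, 0.724 and 0.238 CPM in culture (6.15, SE 0.35, adjusted p = 3.4e-05). Kit, the stem cell factor receptor, read 219, 220, 126 and 111 CPM in colon and 1.87 to 8.49 CPM in culture (5.06, SE 0.61, adjusted p = 0.00051), while the mast cell genes Cpa3 and Fcer1a stayed at or below 6 and 1 counts in every library. The mast cell protease gene Mcpt1 read 4.43 and 4.41 CPM in colon knockouts, at most 0.0897 CPM in colon controls and 0 in culture.

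Some markers of other cells were read in the IL-23 mix. Ly6g, a neutrophil surface gene, read 72.9 and 87.2 CPM there, 3 and 3.56 CPM in the TGF-β mix and at most 0.075 CPM in colon. Cxcr2, a chemokine receptor of neutrophils, read 5.79 and 5.89 CPM in the IL-23 mix and at most 0.0712 CPM in every other library, while S100a8 and S100a9 stayed at or below 2 and 4 counts in every library. Ebf1, a B cell factor, had 112 and 95.6 CPM in that mix and at most 0.825 CPM in colon, while Pax5 stayed at or below 12 counts in every library.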
